A study of Mus musculus with 24 samples.

Results

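The 31 genes described here mark 3 kinds of lymphocyte in mouse kidney: 12 T cell genes, 5 B and plasma cell genes, and 14 genes of natural killer (NK) and cytotoxic T cells. They were chosen by name, with earlier results of these data known. Each was found on the array through the accession of its probes, 44 probes in all. Where a gene had several probes, its brightest probe, by the average linear signal of all 24 arrays, was used. All 31 genes were on the array, among 22911 named genes, and 30 of them entered the test, with 17737 genes in all, because 6 or more of the 24 arrays read them well above background.

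The samples were whole kidneys of male Crl:CD1(ICR) mice, an outbred strain, and age was not in the labels. The 6 sham samples came from mice given vehicle. The other mice received 90 mg/kg of intravenous alloxan, a toxin of insulin-producing beta cells, 3 days before grouping, and were split into 2 groups, with 9 samples each, with like body weight and blood glucose. The DKD group (diabetic kidney disease) ate normal feed, as did the sham mice. The enarodustat group ate feed with 0.01% by weight of enarodustat, a drug that blocks prolyl hydroxylases and so keeps hypoxia-inducible factor from being degraded. Kidneys were taken 16 days after grouping. Diabetes here comes from a chemical loss of beta cells, and the labels name no sorting of cells, so every value is a sum over all cells of the kidney. Fewer cells of a type and less RNA per cell cannot be told apart in such samples.

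T cells recognise antigen through a receptor whose signal is carried by the CD3 chains and the kinases Lck and Zap70, with CD4 or CD8 as coreceptor. B cells signal through the paired chains CD79a and CD79b, and plasma cells, their antibody-secreting descendants, make the J chain that joins antibody units. NK cells and cytotoxic T cells kill by releasing perforin and granzymes, and NK cells are steered by activating and inhibitory receptors. The healthy kidney holds small resident numbers of these cells.

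A level is a probe's processed signal on a log2 scale, counted from the 75th percentile of its array, so a level of 0 is the signal that 75% of spots fall below. Levels of different genes come from different probes and are not compared. Well above background is the scanner software's own mark. A gene passed the test where its adjusted p was below 0.05 in a limma fit of all 24 arrays, adjusted by Benjamini-Hochberg over all 17737 genes. Of the 31 genes, 21 were well above background on all 24 arrays, 6 on 15 to 23 arrays and 3 on 6 to 14 arrays. The last 3 were Gzmb (8 arrays), Ncr1 (12 arrays) and Eomes (10 arrays). Gzmk, which encodes granzyme K, was well above background on 0 of 24 arrays, so nothing can be said of its difference between groups.

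The arrays filled 3 slides of 8, and every slide carried samples of all groups (2 sham, 3 DKD, 3 enarodustat). An array had 37716 to 44732 spots well above background, 0 spots were saturated, and arrays of 1 group correlated at 0.964 to 0.991. Some arrays stood at the edge of their group for many of the 30 tested genes. Sham 4 was the highest sham array for 18 of 30, enarodustat 5 the highest of its group for 16, DKD 9 the highest of its group for 12, and DKD 5 the lowest of its group for 12. Values without these arrays are given for some of the results they touch, not for all.

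In DKD kidneys 6 of the 30 genes fell against sham and 0 rose, while 11.6% of all genes tested passed in either direction, 6.12% falling and 5.48% rising. The genes that fell were Gzma, Gzmb and Klrb1c of the cytotoxic cells, Cd79b and Jchain of the B and plasma cells, and Cd3g of the T cells. The median difference of the 30 genes was -0.41, against -0.01 over all genes tested. Of the 30 differences 27 were below 0, against 51.9% of all genes. Those of Cxcr6 and Prf1 among the 27 turned sign under 3 and 1 of 16 processing alternatives. At an unadjusted p below 0.05 stood 14 of the 30 genes, Gzmb among them, against 24.8% of all genes. The DKD and sham levels did not overlap for 3 of the 30 (Cd79b, Gzmb and Klrb1c), against 3.41% of all genes. Gzmb reached the test through its sham arrays, being above background on no DKD array, and without it 5 of 29 genes fell and 2 of 29 did not overlap. Between enarodustat and DKD 0 of the 30 genes passed in the limma fit, against 0.716% of all genes (0.609% higher, 0.107% lower). In that comparison 6 of the 30 had an unadjusted p below 0.05 (Lck, Zap70, Cd79b, Ms4a1, Jchain and Klrb1c, all higher with the drug), against 10.9% of all genes, and 0 were without overlap, against 0.147%. Between enarodustat and sham 4 fell and 1 rose, against 15.5% of all genes in either direction, 6.76% that fell and 8.76% that rose. Without Gzmb 3 of 29 fell and 1 rose. Here 11 of the 30, Gzmb among them, had an unadjusted p below 0.05, against 29.7% of all genes, and 0 were without overlap, against 4.94%.

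**Figure D1:**
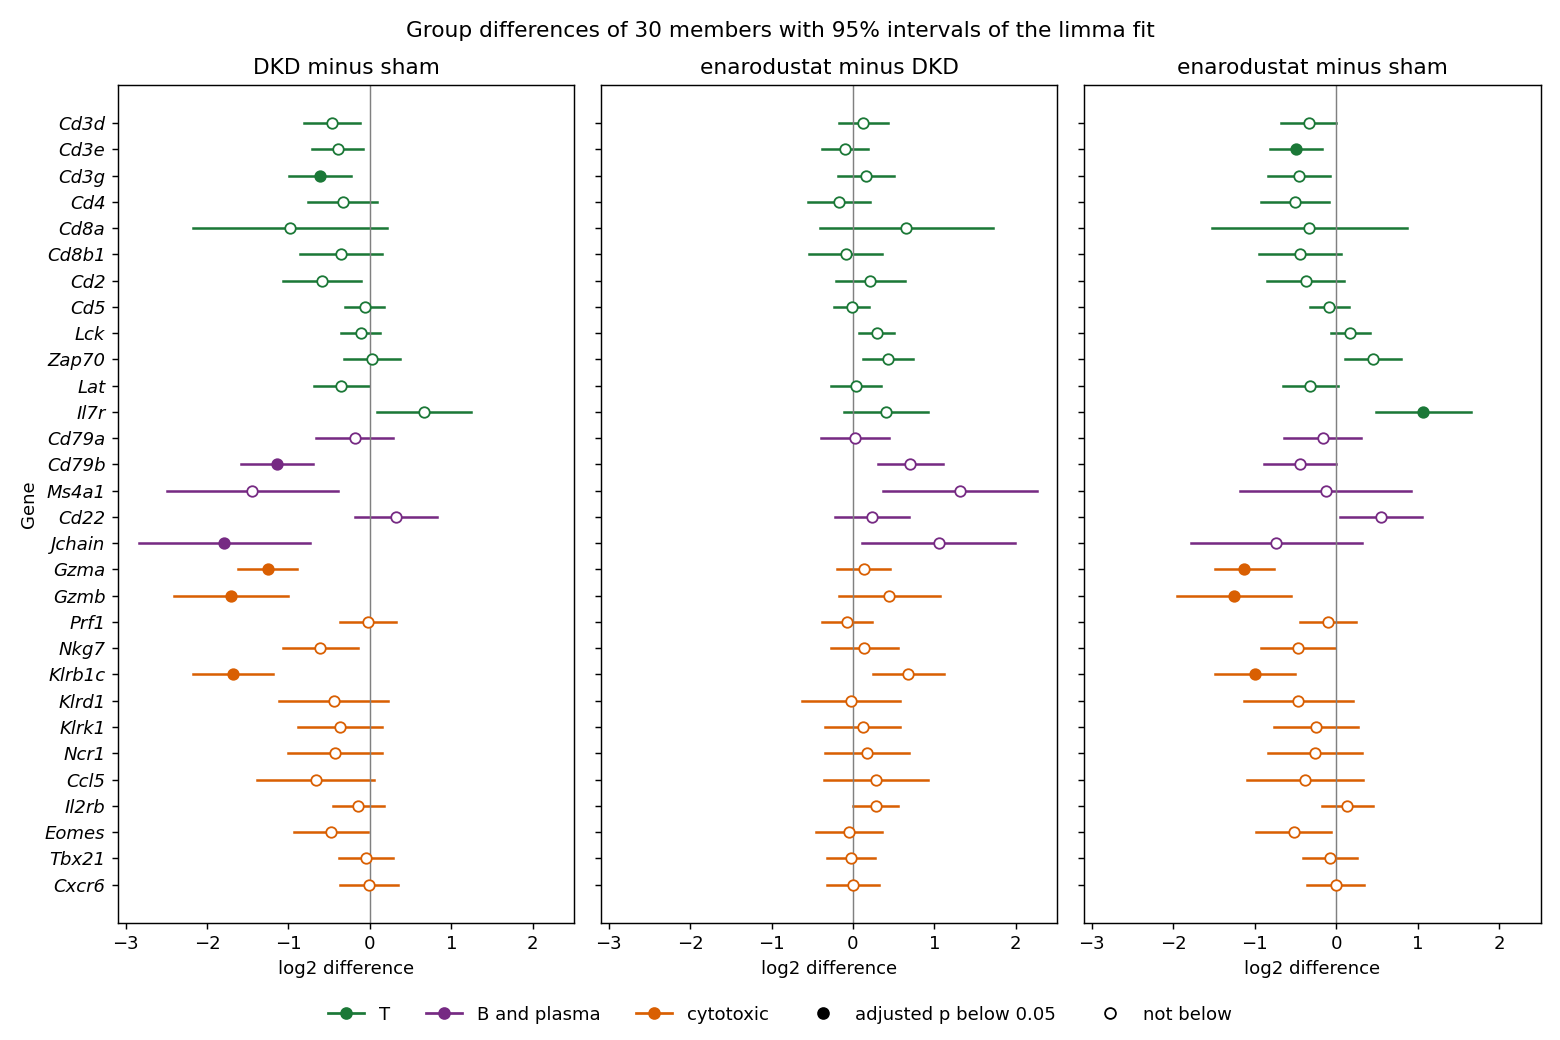
Difference in log2 level (x axis) of each tested gene (y axis) in the 3 comparisons, with its 95% interval from the limma fit. Filled points passed the test: 6 in DKD minus sham, 0 in enarodustat minus DKD and 5 in enarodustat minus sham.

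The granzymes are serine proteases that enter a target cell through perforin pores, and Gzma and Gzmb fell in DKD kidneys while Gzmk was below background. Their promoters, the 250 bases before the transcription start, are shown because the same short sequence stands in both, with the promoter of Gzmk, the neighbour of Gzma on chromosome 13, beside them. RefSeq places them in build GRCm38.p6 at chr13:113100982-113101231 on the minus strand for Gzma, chr14:56262335-56262584 on the minus strand for Gzmb and chr13:113180966-113181215 on the minus strand for Gzmk. Capitals mark the RUNX motif TGTGGTT or its reverse complement in Gzma and Gzmb, and the T-box motif TCACACC as its reverse complement in Gzmk.
Gzma: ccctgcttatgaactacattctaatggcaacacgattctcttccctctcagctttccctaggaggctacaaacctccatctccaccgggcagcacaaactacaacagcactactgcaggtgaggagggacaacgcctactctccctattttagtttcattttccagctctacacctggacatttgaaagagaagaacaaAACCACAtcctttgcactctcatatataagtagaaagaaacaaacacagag
Gzmb: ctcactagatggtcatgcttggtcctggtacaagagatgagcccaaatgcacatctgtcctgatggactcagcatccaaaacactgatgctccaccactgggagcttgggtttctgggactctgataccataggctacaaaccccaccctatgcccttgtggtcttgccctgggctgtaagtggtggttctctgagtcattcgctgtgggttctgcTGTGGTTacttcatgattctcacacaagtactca
Gzmk: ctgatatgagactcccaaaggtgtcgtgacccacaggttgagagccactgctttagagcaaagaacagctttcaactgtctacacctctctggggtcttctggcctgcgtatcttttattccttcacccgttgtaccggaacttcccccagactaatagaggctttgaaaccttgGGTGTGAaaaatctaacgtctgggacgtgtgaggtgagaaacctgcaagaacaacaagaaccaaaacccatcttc
Promoters of 23 of the 31 genes were in the RefSeq table, 27 promoters in all. The RUNX motif stood on either strand in 6 of the 27 promoters and in 4.4% of 32851 mouse promoters of the same length. Those 6 belong to 5 genes, because the 2 promoters of Ncr1 overlap and share 1 site. The T-box motif stood in 2 of 27 and in 3.33% of all, and the ETS motif CAGGAAG in 10 of 27 and in 10.8% of all. These 3 motifs are short forms of sites bound by factor families known in lymphocytes, neither strand of any of them contains another, and a match is a description of the letters, not of binding. Of the 5 genes with a RUNX match (Lck, Gzma, Gzmb, Klrk1 and Ncr1), only Gzma and Gzmb passed the test in DKD minus sham. Of the promoters in the table, those of Klrb1c, Jchain and Cd3g, which also fell, held none of the 3 motifs.

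Gzma, which encodes granzyme A, had the smallest adjusted p of the 30 genes in DKD minus sham. Its level lay between -1.32 and -0.45 in the 6 sham kidneys (median -0.69), between -2.44 and -1.21 in the 9 DKD kidneys (median -2.08) and between -2.38 and -1.18 in the 9 enarodustat kidneys (median -1.87). The DKD kidneys lay low as a group, with all 9 below the sham mean, and overlapped sham only where DKD 6 stood above sham 6. Gzma was 2.39-fold lower in DKD than in sham (log2 difference -1.26, SE 0.18, adjusted p = 9.67e-05) and 2.18-fold lower in enarodustat than in sham (-1.13, SE 0.18, adjusted p = 0.000187). The enarodustat and DKD means differed by 0.13, with a 95% interval from -0.20 to 0.46 and an adjusted p of 0.877. Within the slides the DKD minus sham difference was -1.35, -1.30 and -1.11.

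Gzmb, which encodes granzyme B, was well above background on 6 of 6 sham arrays, 0 of 9 DKD arrays and 2 of 9 enarodustat arrays. Its level was -5.48 to -4.96 in sham (median -5.24), -7.92 to -5.76 in DKD (median -7.26) and -7.46 to -5.30 in enarodustat (median -6.48). No DKD kidney reached the lowest sham kidney, and enarodustat 5 alone among the drug-fed kidneys lay within the sham range. Because DKD signals give only a bound, Gzmb was at least 1.43-fold lower in DKD than in sham (mean level -6.93 against -5.23, adjusted p = 0.00177). The bound sets the sham mean against the mean, over the DKD arrays, of the lowest signal well above background or the probe's own signal, whichever is higher. Against sham the enarodustat mean was -6.49 (adjusted p = 0.0135). Since Gzmb entered the test through its sham arrays, a difference from the other groups is partly set by that filter. Background was also corrected by normexp in place of the scanner software, with an offset of 50 added to every signal. Such an offset by itself shrinks the log2 differences of dim probes. The DKD minus sham difference then shrank to -0.13 and did not pass (adjusted p = 0.461), nor did the enarodustat minus sham difference (adjusted p = 0.382). With normexp and quantile normalization the DKD difference was as small, at -0.12, and passed (adjusted p = 0.0175).

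Klrb1c encodes NK1.1, a lectin-like receptor of NK cells and some T cells. Its level was -3.44 to -2.70 in sham (median -2.97), -5.57 to -3.93 in DKD (median -4.62) and -4.48 to -2.97 in enarodustat (median -4.22). All DKD kidneys lay below all sham kidneys, and the drug-fed kidneys lay in the upper part of the DKD range or above it, with enarodustat 5 inside the sham range. Klrb1c was 3.19-fold lower in DKD than in sham (log2 difference -1.68, SE 0.24, adjusted p = 9.92e-05) and 1.99-fold lower in enarodustat than in sham (-0.99, SE 0.24, adjusted p = 0.00617). It was 1.60-fold higher in enarodustat than in DKD, with all 9 drug-fed kidneys above the DKD mean, and this did not pass (0.68, 95% interval 0.24 to 1.12, adjusted p = 0.171). The probe was well above background on 22 of 24 arrays. The second probe of the gene, well above background on 15 arrays, differed by -0.44 (DKD minus sham, adjusted p = 0.269), and the third was never above background. With the mean of all its probes Klrb1c differed by -0.76 in DKD minus sham (adjusted p = 0.000625) and by -0.33 in enarodustat minus sham, which did not pass (adjusted p = 0.0963).

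**Figure D2:**
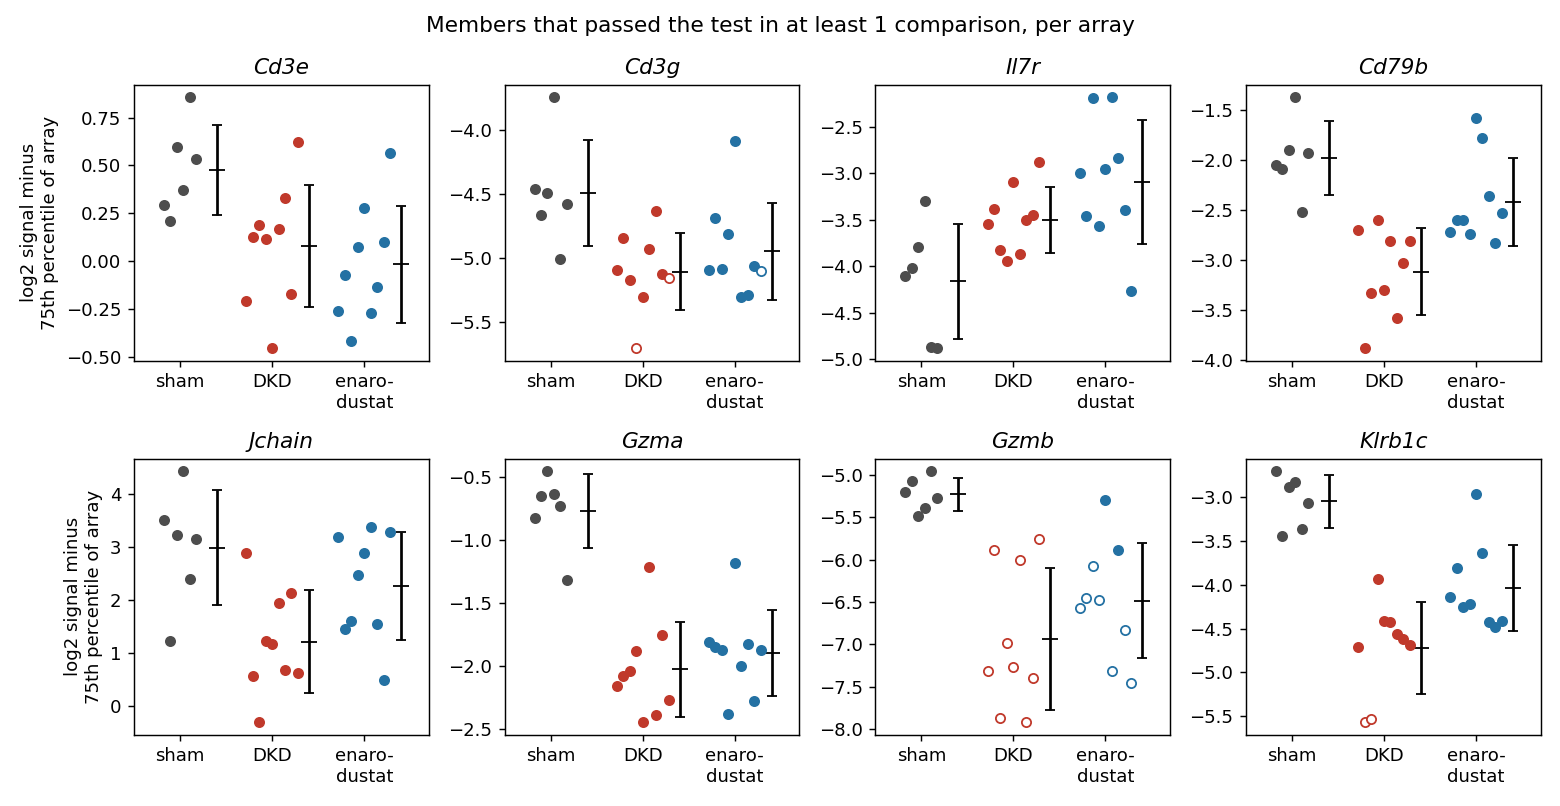
Level (log2 signal relative to the array's 75th percentile, y axis, scaled separately for each gene) in every sham, DKD and enarodustat kidney for the 8 genes that passed in at least 1 comparison. Hollow points were not well above background, bars give the mean and SD, and for Gzmb, Klrb1c and Cd79b no DKD point reaches the lowest sham point.

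The other cytotoxic cell genes did not pass in any comparison. The differences in DKD minus sham of all 13 tested genes of this kind were below 0 (median -0.44), apart from the turns of sign of Cxcr6 and Prf1 given above. Of all genes tested 51.9% were below 0. The 13 include Gzmb, which entered the test through its sham arrays. Among the genes that did not pass, the largest differences were those of Ccl5, a chemokine of activated T and NK cells (-0.67, adjusted p = 0.242), and Nkg7, a protein of cytotoxic granules (-0.61, adjusted p = 0.0785). Nkg7 rested in part on sham 4, at -1.41 the highest sham kidney by a wide margin, the other sham kidneys reaching no higher than -2.41. All 9 DKD kidneys lay below the sham mean of Nkg7 (-2.38), but that mean includes sham 4. The highest DKD kidney (-2.44) lay above the sham median (-2.51). Without enarodustat 5 in the fit the gene passed.

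Among the receptors of NK cells, the DKD minus sham difference was -0.44 for Klrd1 (CD94, adjusted p = 0.436), -0.37 for Klrk1 (NKG2D, adjusted p = 0.389) and -0.43 for Ncr1 (NKp46, adjusted p = 0.368). Ncr1 was well above background on 5 of 6 sham, 3 of 9 DKD and 4 of 9 enarodustat arrays. For Eomes, a T-box transcription factor of NK and memory T cells, the counts were 4 of 6, 3 of 9 and 3 of 9, and the difference was -0.47 (adjusted p = 0.182). The differences were close to 0 for Prf1, which encodes perforin (-0.02, 95% interval -0.37 to 0.32), Tbx21, which encodes the transcription factor T-bet (-0.05, -0.38 to 0.28), and Cxcr6, a chemokine receptor (-0.01, -0.36 to 0.35). Il2rb, the receptor chain for interleukins 2 and 15, differed by -0.14 in DKD minus sham (adjusted p = 0.63) and by 0.28 in enarodustat minus DKD (adjusted p = 0.466). Its second probe was also well above background on all 24 arrays. In a limma fit of all probes it differed by -0.39 (adjusted p = 0.213) and by 0.30 (adjusted p = 0.548) in these comparisons.

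Prf1, whose product forms the pores through which granzymes enter, spanned -2.68 to -1.91 in sham, -2.94 to -1.64 in DKD and -2.89 to -2.10 in enarodustat. The Prf1 ranges overlapped almost fully. Whether its difference departs from that of Gzma was not tested.

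Of the 5 B and plasma cell genes, 2 fell in DKD, against 6.12% of all genes tested, and the median difference was -1.14. Cd79b, the beta signalling chain of the B cell receptor, was at -2.52 to -1.37 in sham (median -1.99), -3.89 to -2.60 in DKD (median -3.04) and -2.83 to -1.58 in enarodustat (median -2.60). DKD and sham kidneys did not overlap, by a narrow margin, and the drug-fed kidneys reached into both ranges. Cd79b was 2.21-fold lower in DKD than in sham (log2 difference -1.14, SE 0.22, adjusted p = 0.00117), with differences of -1.24, -1.27 and -0.92 within the slides. It was 1.63-fold higher in enarodustat than in DKD (0.70, SE 0.19, adjusted p = 0.102), with all 9 drug-fed kidneys above the DKD mean. That difference passed only with the slide as a fixed block (adjusted p = 0.044), and without enarodustat 5 it was 0.60 (adjusted p = 0.191).

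Jchain, which encodes the J chain of secreted polymeric antibody, varied widely between samples. It was at 1.22 to 4.44 in sham (median 3.19), -0.31 to 2.88 in DKD (median 1.17) and 0.49 to 3.38 in enarodustat (median 2.47). Every DKD kidney lay below the sham mean, although sham 2 lay as low as the DKD median. Jchain was 3.45-fold lower in DKD than in sham (log2 difference -1.78, SE 0.51, adjusted p = 0.0235). Without sham 4 the difference was -1.50 and did not pass (adjusted p = 0.0746), nor did it without sham 1 or sham 3, with the slide row as a term (adjusted p = 0.0715) or with array weights (adjusted p = 0.0564). The enarodustat minus DKD difference of 1.05 (95% interval 0.11 to 1.99, adjusted p = 0.386) did not pass.

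Ms4a1, which encodes the B cell surface protein CD20, was well above background on 5 of 6 sham, 3 of 9 DKD and 7 of 9 enarodustat arrays. It was at -5.79 to -4.06 in sham (median -4.29), -7.81 to -3.81 in DKD (median -6.03) and -5.92 to -3.16 in enarodustat (median -4.87). DKD kidneys were mostly low, except DKD 9, which was above every sham kidney. The differences of -1.44 in DKD minus sham (adjusted p = 0.0692) and 1.31 in enarodustat minus DKD (adjusted p = 0.244) did not pass, although the first passed without DKD 9. Cd79a, the alpha partner of Cd79b, differed by -0.19 in DKD minus sham (95% interval -0.66 to 0.29, adjusted p = 0.681) and was well above background on 19 of 24 arrays. Cd22, an inhibitory receptor of B cells, differed by 0.32 (adjusted p = 0.455), but its second probe differed by -0.25. For enarodustat minus sham the Cd22 probes gave 0.55 (adjusted p = 0.129) and -0.53 (adjusted p = 0.0181 in a fit of all probes), so no direction can be given for this gene.

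Of the 12 T cell genes, 1 fell in DKD, against 6.12% of all genes tested, and the median difference was -0.35. It was Cd3g, the gamma chain of the CD3 complex, at -5.01 to -3.75 in sham (median -4.53), -5.70 to -4.63 in DKD (median -5.12) and -5.31 to -4.09 in enarodustat (median -5.08). All 9 DKD kidneys lay below the sham mean, and the ranges overlapped. Cd3g was 1.53-fold lower in DKD than in sham (log2 difference -0.61, SE 0.19, adjusted p = 0.0316). The call is near the threshold: it did not pass when sham 1, sham 3, sham 4, DKD 4 or DKD 5 was left out, with an adjusted p of up to 0.105 without sham 4, where the difference was -0.47. With the slide row as a term its adjusted p was 0.0503.

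The partner chains Cd3d, the neighbour of Cd3g on chromosome 9, and Cd3e, the neighbour of Cd3d, differed by -0.47 (adjusted p = 0.0683) and -0.40 (adjusted p = 0.0992) in DKD minus sham. Cd3e passed in enarodustat minus sham. Its level was 0.21 to 0.85 in sham (median 0.45), -0.46 to 0.62 in DKD (median 0.12) and -0.42 to 0.56 in enarodustat (median -0.08). The drug-fed kidneys were low, with 8 of 9 below the sham mean, and overlapped sham. Cd3e was 1.41-fold lower in enarodustat than in sham (-0.49, SE 0.15, adjusted p = 0.0314), and the adjusted p reached 0.0896 when single arrays were left out. Its second probe, well above background on all 24 arrays, differed by -0.39 and did not pass (adjusted p = 0.0778 in a limma fit of all probes).

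Il7r, the receptor chain through which interleukin 7 keeps T cells alive, was the 1 gene that rose. Its level was -4.89 to -3.29 in sham (median -4.07), -3.95 to -2.88 in DKD (median -3.50) and -4.27 to -2.18 in enarodustat (median -2.99). Drug-fed kidneys were high except enarodustat 9, and the groups overlapped. Il7r was 2.10-fold higher in enarodustat than in sham (1.07, SE 0.28, adjusted p = 0.0116), and the DKD minus sham difference of 0.66 did not pass (adjusted p = 0.135). Sham arrays lay in row 1 of each slide and enarodustat arrays in row 2, so row and group are told apart only through the DKD arrays, which lay in both. With the row as a term the Il7r, Gzmb and Klrb1c differences from sham did not pass in the enarodustat group, nor did Il7r with normexp background correction and the 75th percentile (0.31, adjusted p = 0.0647). That normexp setting adds an offset of 50 to every signal.

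The coreceptor genes did not pass in any comparison. Cd4 differed by -0.33 in DKD minus sham (adjusted p = 0.33) and by -0.51 in enarodustat minus sham (adjusted p = 0.0932), but its second probe gave 0.00 in the latter. Cd8b1 differed by -0.35 (adjusted p = 0.397) and -0.44 (adjusted p = 0.226) in the same comparisons. Cd8a was well above background on 17 of 24 arrays and spread from -7.65 to -3.04 within the DKD group, so its difference of -0.98 carried a 95% interval from -2.18 to 0.21. The other Cd8a probe, well above background on 23 arrays, differed by -0.47 (adjusted p = 0.319). It is the dimmer of the pair on the linear scale, by which probes were chosen, but the brighter on the log2 scale (mean level -4.82 against -5.11), so the choice of the Cd8a probe depends on the scale.

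Among the adhesion and signalling genes, Cd2, a costimulatory adhesion receptor, differed by -0.59 in DKD minus sham (adjusted p = 0.105) and Lat, an adaptor of the T cell receptor, by -0.35 (adjusted p = 0.189). Cd5, an inhibitory surface receptor, differed by -0.06 (95% interval -0.30 to 0.18) and Lck by -0.11 (-0.36 to 0.13). Between enarodustat and DKD Lck differed by 0.29 (adjusted p = 0.27), and its second probe by -0.15. Zap70 differed by 0.02 between DKD and sham and by 0.43 between enarodustat and DKD (adjusted p = 0.249), with all 9 drug-fed kidneys above the DKD mean. The second Zap70 probe differed by -0.42 in DKD minus sham (adjusted p = 0.0712) and by 0.14 in enarodustat minus DKD, so the sign against sham depends on the probe. It also turned under 5 of 16 processing alternatives.

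**Figure D3:**
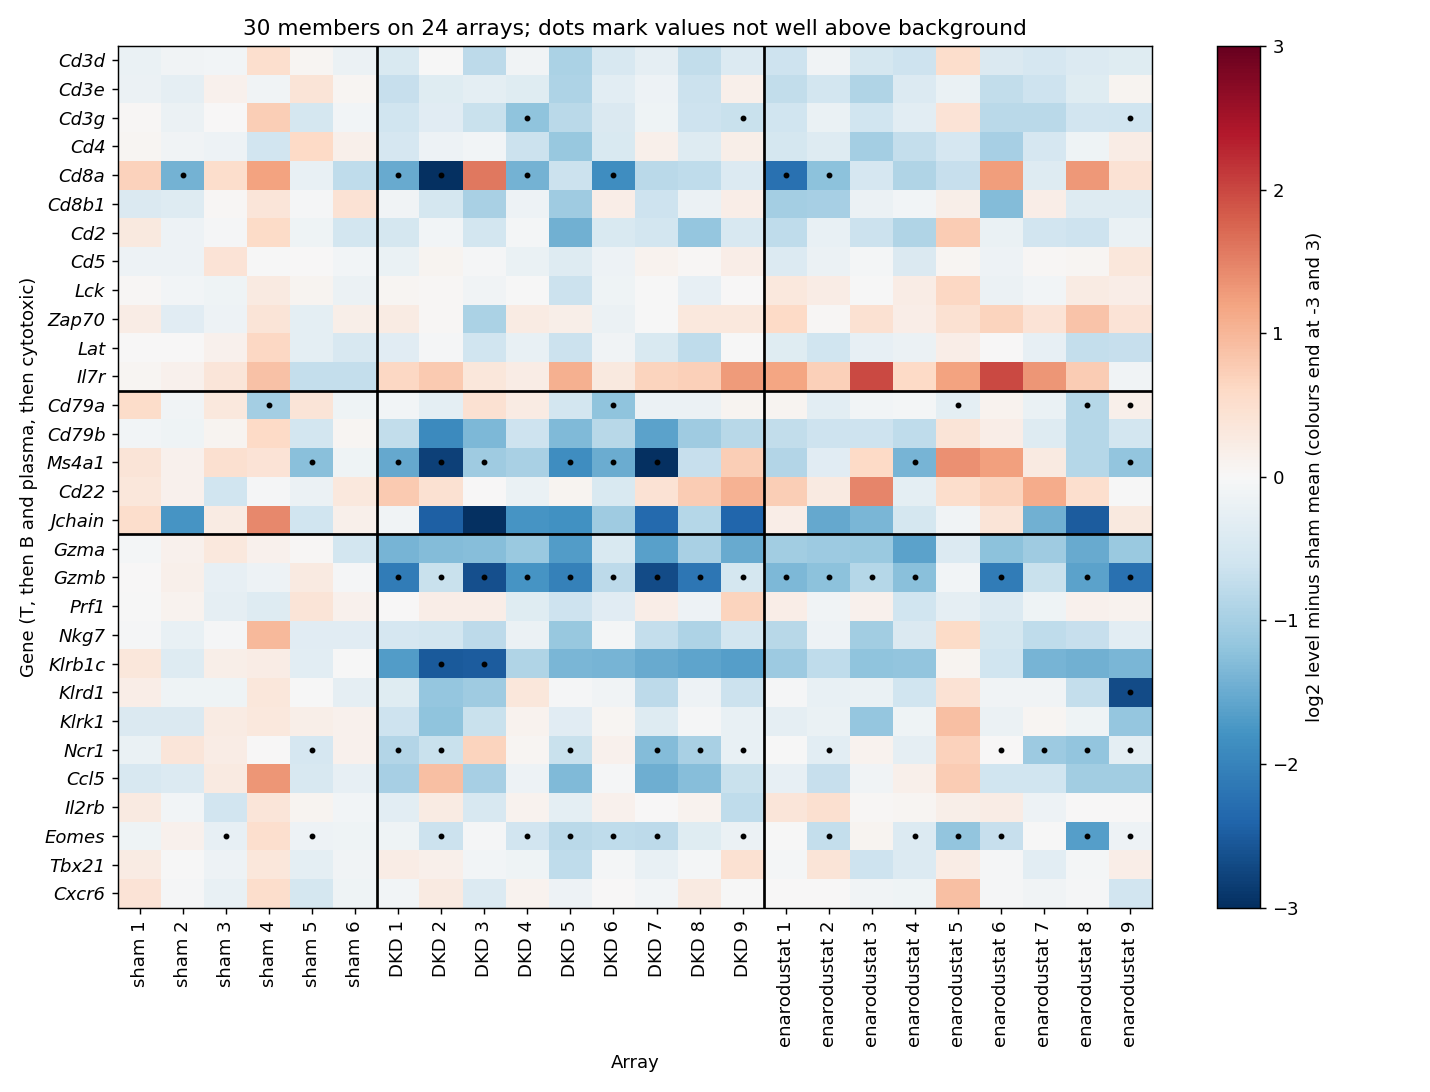
Level of each tested gene (rows: T, then B and plasma, then cytotoxic) on each array (columns) minus the sham mean, in log2 units, with colours ending at -3 and 3 and dots where the probe was not well above background. Blue runs through the DKD columns for Gzma, Gzmb and Klrb1c, and Il7r is red in most enarodustat columns.

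The 3 kinds of gene were compared by their counts and by a mean per array: the level of each gene minus its sham mean, averaged over the genes of that kind. For T cell genes this mean was -0.25 to 0.40 in sham (median -0.03), -0.62 to 0.03 in DKD (median -0.33) and -0.43 to 0.25 in enarodustat (median -0.14). For B and plasma cell genes it was -0.44 to 0.34 in sham (median 0.08), -1.40 to -0.27 in DKD (median -1.01) and -0.91 to 0.52 in enarodustat (median -0.13). For cytotoxic cell genes it was -0.13 to 0.35 in sham (median -0.06), -0.87 to -0.28 in DKD (median -0.64) and -0.82 to 0.21 in enarodustat (median -0.48). Gzmb, well above background on no DKD array, is part of the cytotoxic mean. The enarodustat median thus lay nearer to sham than to DKD for the T and for the B and plasma genes, and nearer to DKD for the cytotoxic genes. The T cell mean includes Il7r, which differed from sham by 0.66 in DKD and by 1.07 in enarodustat. No T cell mean was taken without Il7r, so the place of the enarodustat median may rest on that gene. For the T and the cytotoxic genes, sham 4 and enarodustat 5 were the highest arrays of their groups. The medians of the differences between enarodustat and DKD were 0.14, 0.70 and 0.13 for the T, B and plasma, and cytotoxic genes, against 0.00 over all genes tested. Above 0 were 8 of 12, 5 of 5 and 9 of 13, against 9065 of all 17737 genes. Some signs of the 30 genes turned under processing alternatives, among them those of Lat (6 of 16), Cxcr6 (5 of 16), Cd79a (2 of 14) and Cd22 (1 of 16). The second Cd22 probe gave -0.28 here. Without enarodustat 5 the median over all 30 fell from 0.15 to 0.04. Whether the 3 kinds differ from each other was not tested.

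**Figure D4:**
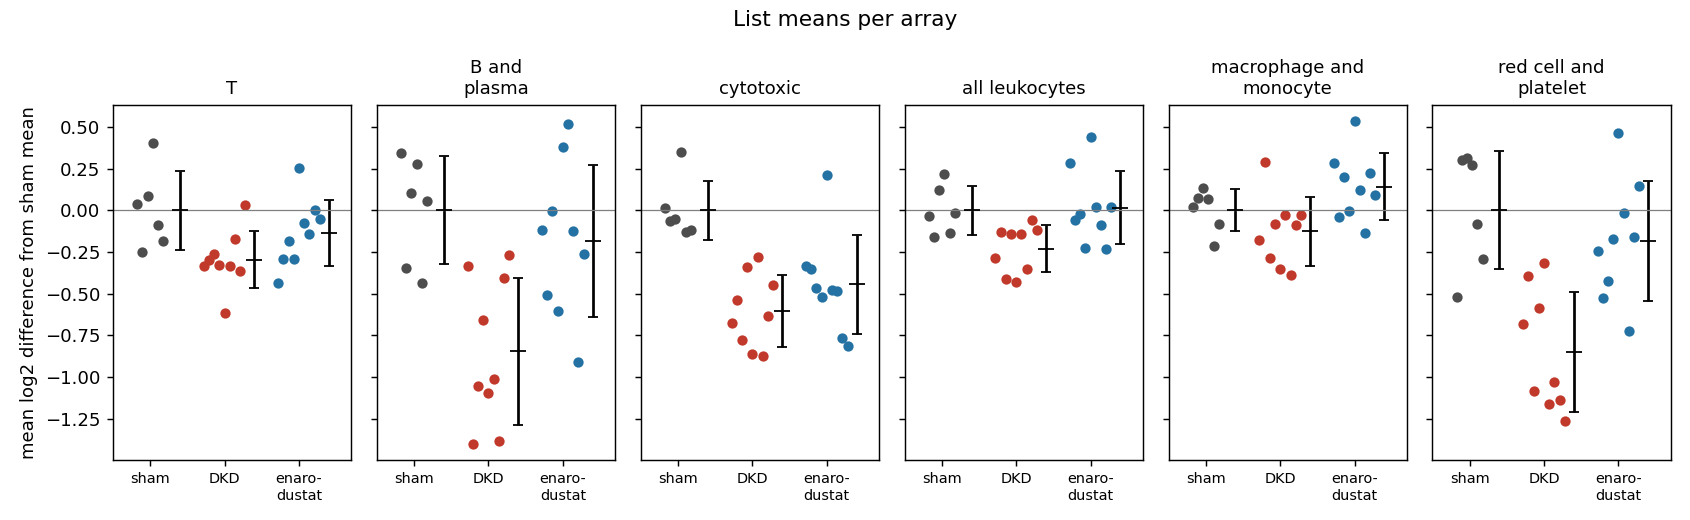
Mean over each list of the log2 difference from the sham mean (y axis) for every array, for the T, B and plasma, and cytotoxic genes and for 3 marker lists of other cells, with mean and SD as bars. The DKD points of the B and plasma, cytotoxic, and red cell and platelet lists lie lowest, with DKD medians of -1.01, -0.64 and -1.03.

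Of the 27 genes whose DKD mean lay below the sham mean, the enarodustat mean lay between the sham and DKD means for 17, above sham for 2 and below DKD for 8. For the B and plasma genes it lay between for 4 of 4, for the T cell genes for 5 of 10 and for the cytotoxic genes for 8 of 13. DKD kidneys take part in both differences, so these counts describe the order of the means and test nothing.

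Leaving out arrays moved the counts. Without sham 4, 4 genes fell in DKD (Cd79b, Gzma, Gzmb and Klrb1c). Without enarodustat 5, which takes no part in that comparison except through the shared spread, 9 fell, with Cd2, Cd3d and Nkg7 added, and 7 fell in enarodustat minus sham. Cd79b, Gzma, Gzmb and Klrb1c passed in DKD minus sham whichever single array was left out. With normexp background correction and the 75th percentile the differences were smaller: Gzma (-0.80, adjusted p = 4.7e-05), Klrb1c (-0.39, adjusted p = 0.0102) and Cd79b (-0.48, adjusted p = 0.0084) passed, and Cd3g did not (-0.12, adjusted p = 0.549). The offset of 50 in that setting by itself shrinks the log2 differences of dim probes.

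Markers of other blood cells moved beside these genes. Over all genes tested, 6.12% fell and 5.48% rose in DKD. Of 8 tested genes of red cells and platelets, 5 fell in DKD and 0 rose, among them Ppbp (-2.29, adjusted p = 0.000839) and Pf4 (-1.05, adjusted p = 0.0152), chemokines of platelets, and the haemoglobin genes Hbb-bt (-0.95, adjusted p = 0.033) and Hba-a1 (-0.94, adjusted p = 0.0277). The summed linear level of this list, as a ratio to the 75th percentile, was 298 to 755 in sham, 148 to 474 in DKD and 257 to 852 in enarodustat, and its highest array was enarodustat 5. Its part in the result was not tested. On slides 1, 2 and 3 Ppbp differed by -3.01, -2.14 and -1.72, Pf4 by -1.61, -0.85 and -0.70, Hbb-bt by -0.15, -1.22 and -1.49, and Hba-a1 by -0.26, -1.26 and -1.29.

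Of 7 tested neutrophil genes, 2 fell in DKD, S100a8 (-1.03, adjusted p = 0.00598) and S100a9 (-1.07, adjusted p = 0.00332), which encode the subunits of calprotectin. Of 12 genes shared by all leukocytes, Ikzf1 (-0.66, adjusted p = 0.0381) and Lcp1 (-0.44, adjusted p = 0.0117) fell in DKD, and Lcp1 rose in enarodustat against DKD (0.49, adjusted p = 0.0191). Their median difference in DKD minus sham was -0.19, and Ptprc, which encodes CD45 on all leukocytes, did not pass. Of 14 macrophage and monocyte genes 1 fell, Csf1r (-0.89, adjusted p = 0.000267), the receptor for colony stimulating factor 1, and of 11 dendritic cell genes 0 passed. The share that fell in DKD over all genes tested was 6.12%. The summed level of the macrophage list was 130.2 to 165 in sham, 107 to 167 in DKD and 116 to 248 in enarodustat.

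Further genes of the same cells were read from lists. Of 22 other B and plasma cell genes tested, 3 fell and 1 rose in DKD, against 6.12% and 5.48% of all genes tested. Those that fell were Derl3 (-1.50, adjusted p = 0.00264), a component of protein degradation in secretory cells, Pou2af1 (-1.21, adjusted p = 0.0265), a transcription coactivator of B cells, and Vpreb3 (-0.90, adjusted p = 0.00297), a light-chain-like protein of B cells. Blnk, an adaptor of the B cell receptor, rose (0.37, adjusted p = 0.0192) and fell again in enarodustat against DKD (-0.40, adjusted p = 0.0395). Derl3 also fell in enarodustat against sham (-1.09, adjusted p = 0.0199). In DKD minus sham the median of the 22 was -0.12, and 16 were below 0, against 51.9% of all genes tested.

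Of 23 other T cell genes 0 fell in DKD and 1 rose, Gata3 (0.32, adjusted p = 0.0335), a transcription factor that kidney epithelium also expresses. Against sham, Cd7 fell in enarodustat (-0.59, adjusted p = 0.0461) and Gimap4, a GTPase of lymphocytes and endothelium, rose (0.28, adjusted p = 0.0462). Of 28 other NK and cytotoxic genes only 12 could be tested, and 1 passed in DKD minus sham: Gzmm, which encodes granzyme M, rose (0.59, adjusted p = 0.0165), opposite to Gzma and Gzmb. The DKD medians of these lists were -0.04 and -0.06. Over all genes tested, 6.12% fell and 5.48% rose in DKD, and 6.76% fell and 8.76% rose in enarodustat against sham.

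Of 22 chemokines, cytokines and receptors that attract or sustain lymphocytes, Cxcl16, the ligand of Cxcr6, rose in DKD (0.39, adjusted p = 0.0187), and Il18, an activator of NK cells, fell (-0.68, adjusted p = 0.000469). The shares over all genes tested were 5.48% rising and 6.12% falling in DKD, and 8.76% and 6.76% in enarodustat against sham. Against sham, the enarodustat group had higher Cxcl10, a chemokine for activated T cells (1.05, adjusted p = 0.0168), Cxcl16 (0.44, adjusted p = 0.00709) and Il2, the T cell growth factor (0.67, adjusted p = 0.0335), and lower Il18 (-0.53, adjusted p = 0.00342). Il2 was well above background on 2 of 6 sham, 6 of 9 DKD and 7 of 9 enarodustat arrays, so its sham mean rests mostly on signals near background and the size of its difference is uncertain.

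The genes were also compared with each other across samples, as deviations from the group mean on 24 arrays, with two-sided permutation tests within groups (100000 resamples) adjusted over 435 pairs. For 23 pairs Pearson's r had an adjusted p below 0.05, 21 of them with r above 0, and 7 pairs also passed by Spearman's rho. Cd3d and Cd2 varied together (r = 0.88, p = 1e-05, the smallest these resamples can give, adjusted p = 0.00217; rho = 0.76, p = 0.00011, adjusted p = 0.012), and r was 0.78 without the 2 arrays farthest from the Cd3d median. Cd79b and Ms4a1 did so as well (r = 0.75, p = 4e-05, adjusted p = 0.00348; rho = 0.79, p = 1e-05, adjusted p = 0.00435), with r at 0.68 without 2 arrays. The other pairs were Cd2 with Nkg7 (r = 0.83), Cd3d with Nkg7 (0.80), Cd3e with Cd4 (0.79), Lat with Ccl5 (0.78) and Cd4 with Prf1 (0.75). Samples of 1 slide resembled each other, with a median correlation of 0.189 between groups against -0.0906 across slides, so the test was repeated with the means of each group on each slide removed and permutations within them, a setting chosen after seeing the data. Of the 7 pairs 2 then passed by both measures: Cd3e with Cd4 (r = 0.94, permutation p = 1e-05, adjusted p = 0.00435; rho = 0.94, p = 1e-05, adjusted p = 0.00435) and Cd3d with Cd2 (r = 0.91, p = 0.00012, adjusted p = 0.0152; rho = 0.89, p = 0.0001, adjusted p = 0.0217). Cd79b with Ms4a1 kept an r of 0.77 and passed by rho (adjusted p = 0.0413) but not by r (adjusted p = 0.0658), and Cd4 with Prf1 passed by neither (r = 0.56, adjusted p = 0.258). The other 3 of the 7 pairs passed by rho only (Cd2 and Cd3d with Nkg7) or by neither (Lat with Ccl5). Among all 435 pairs 5 passed by both measures in this setting, also Il7r with Cd22 (r = 0.88), Nkg7 with Tbx21 (0.83) and Gzmb with Ccl5 (0.79). Gzmb was well above background on only 8 of 24 arrays, so most of its deviations rest on signals near background. The Cd22 probe used lay far above its second probe (mean levels 0.10 against -5.34), and Il7r was not tested with that second probe. The Cd3e and Cd4 probes used lay far above the second probes of these genes (mean levels 0.14 against -2.09, and 1.02 against -4.69). The pair of Cd3e and Cd4 was not tested with those second probes.

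The pairs of partner chains of 1 receptor given here did not pass, which does not show that they vary apart. Between Cd3d and Cd3e r was 0.39 (permutation p = 0.0759, adjusted p = 0.303; rho = 0.42, p = 0.0524, adjusted p = 0.285), and between Cd3d and Cd3g it was 0.58 (p = 0.0082, adjusted p = 0.0892; rho = 0.39, p = 0.0706, adjusted p = 0.321), falling to 0.16 without 2 arrays. Cd8a and Cd8b1 gave r = -0.14 (p = 0.55, adjusted p = 0.762; rho = -0.12, p = 0.584, adjusted p = 0.814), and Cd79a and Cd79b gave r = -0.14 (p = 0.534, adjusted p = 0.76; rho = -0.06, p = 0.801, adjusted p = 0.922). With the means of each group on each slide removed, Cd3d and Cd3e gave r = 0.47 (permutation p = 0.0622, adjusted p = 0.349) and rho = 0.55 (p = 0.0257, adjusted p = 0.261). In that setting r was 0.54 for Cd3d with Cd3g (adjusted p = 0.464), -0.43 for Cd8a with Cd8b1 (adjusted p = 0.41) and 0.00 for Cd79a with Cd79b (adjusted p = 0.997). The probes of Cd8a and Cd79a were above background on 17 and 19 of 24 arrays.

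**Figure D5:**
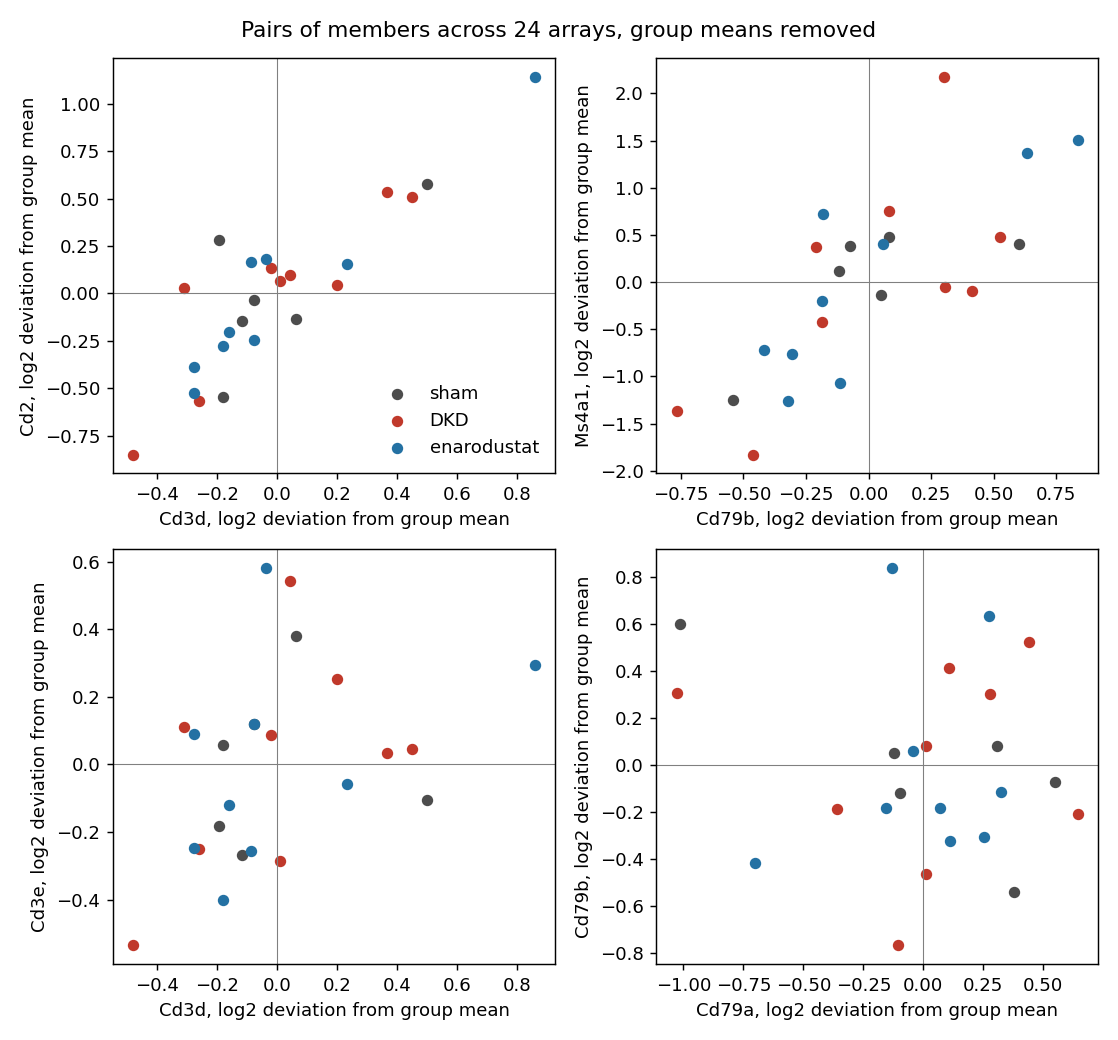
Deviations from the group mean in log2 units of 4 pairs of genes on 24 arrays, coloured by group. Cd3d with Cd2 (r = 0.88) and Cd79b with Ms4a1 (r = 0.75) rise together, while Cd3d with Cd3e (r = 0.39) and Cd79a with Cd79b (r = -0.14) spread widely.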

How the data were processed

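Gene expression was measured in 24 samples of mouse renal tissue on one-colour Agilent arrays with Cy3 label. Per the file headers the deposited intensity values came from Agilent Feature Extraction 12.1.1.1, and the submitters' processing notes give 11.5.1.1, and limma, instead. The processed signal is background-subtracted and was used as deposited. Each array was centred on the 75th percentile of its log2 processed signals. Values with a scanner outlier mark and control spots were left out. The deposited log2 table, whose scale was found by comparison with the scanner intensity values, served as an alternative: the median difference from a normexp and quantile version of the same values was 0.00860, its column medians were 7.54 to 7.56, and it held the probes of 21 of the 31 genes.

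Probes with a name numbered 32994 of 56605. The 17737 genes that 6 or more of the 24 arrays read well above background entered 1 limma 3.58.1 fit (R 4.3.3) of all 3 groups without covariates, with Benjamini-Hochberg adjustment over all genes and 95% intervals. The number of arrays limits the precision. The labels do not say that each sample was a separate mouse, so p-values measure the spread between these samples. Replicate numbers were only names: same-numbered samples of different groups correlated above 0.1 in 10 of 21 pairs. All 31 genes are named; of other lists, up to 4 genes with the largest change among those that passed. The genes and lists were chosen with earlier results of these data known. The fit was tested on simulated data. Alternatives covered background, scaling, filters, probes, slides, slide row, weights and single arrays. Promoters are from RefSeq, GRCm38.p6.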

Additional observations from a re-analysis of the deposited data

Results flagged for a closer look

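In 12 of 93 groups of arrays examined, the highest or lowest array stood far from the nearest other array relative to the range of its group (Dixon's rule), which chance does in about 1 in 20 groups. Enarodustat 5 was the high array in 4 of them: Cd3d at -2.02 (next array -2.65), Cd2 at -2.84 (next -3.80), Gzma at -1.18 (next -1.81) and Cxcr6 at -1.18 (next -2.05). Sham 4 was the high array for Cd3d at -2.04 (next -2.48) and for Nkg7 at -1.41 (next -2.41). Sham 3 stood high for Cd5 at -3.09 (next -3.50).

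The low arrays were DKD 5 for Lck at -2.29 (next -1.88), DKD 3 for Zap70 at -4.57 (next -3.78) and enarodustat 8 for Cd79a at -6.17 (next -5.62). Sham 5 was low for Ms4a1 at -5.79 (next -4.68), and enarodustat 9 for Klrd1 at -6.90 (next -4.94), where the probe was not well above background.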

How the results depend on the processing

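Each comparison was repeated under 43 alternatives, and the count of genes that passed stayed within 1.5 times the value given for 39 (DKD minus sham, 6 genes), 42 (enarodustat minus DKD, 0 genes) and 34 (enarodustat minus sham, 5 genes). For DKD minus sham it was 3 of 21 genes when only those well above background on all 24 arrays were tested, and 1, 0 and 1 on slides 1, 2 and 3 alone, where fewer arrays enter. Leaving out single arrays gave 4 to 9. For enarodustat minus DKD it was 1 (Cd79b, higher) with the slide as a fixed block, and 0 to 0 without single arrays. For enarodustat minus sham it was 3 with normexp on median signals and the 75th percentile, a setting chosen after seeing the data, 3 in the deposited table, 3 with the filter on all 24 arrays, 3 with the slide row as a term, and 1, 0 and 0 on slides 1, 2 and 3. It was 13 with array weights, and the cause was not tested. Without single arrays it was 4 to 8, the 8 without enarodustat 5.

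Of 3816 values of single genes, 3708 kept their direction and side of the threshold or moved by less than 1 SD, 58 lost and 40 gained the call, 10 moved and 0 called values changed sign. With the replicate number as a block, 5, 0 and 5 genes passed in the 3 comparisons: Cd3g was lost in DKD minus sham (adjusted p = 0.127), and the numbers do not pair the samples. Normexp on mean signals was planned but not run, since the scanner data held no mean signals. Probes near background (Gzmb, Cd3g, Ncr1, Eomes, Ms4a1) limit what these arrays show.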

Other observations

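Markers of the kidney's own cells were read on the same arrays. Over all genes tested, 11.6% passed in DKD minus sham, 0.716% in enarodustat minus DKD and 15.5% in enarodustat minus sham. Of 7 endothelial genes, 3 rose in enarodustat against DKD, among them Cdh5, the cadherin of endothelial junctions (0.43, adjusted p = 0.0103), and 4 rose against sham, Cdh5 by 0.64. In DKD minus sham 1 rose, Tek, a receptor for angiopoietins (0.27). The mean of the list, as a difference from sham, was 0.11 to 0.50 in the 9 enarodustat samples and -0.12 to 0.15 in DKD.

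Of 8 proximal tubule genes, 1 rose and 2 fell in DKD against sham: Gatm, an enzyme of creatine synthesis, rose by 0.58, and the organic anion transporter Slc22a6 fell by 0.75 and the dicarboxylate transporter Slc13a3 fell by 0.38. In enarodustat against sham 1 rose and 3 fell. Of 7 fat and adrenal genes only 3 could be tested and 1 passed, Star, the cholesterol carrier of steroid synthesis, in enarodustat against sham (0.75, adjusted p = 0.0356). Adipoq and Cyp11a1 were well above background on 0 arrays.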
